A study of Mus musculus with 8 samples.

Results

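The coreceptor genes Cd4, Cd8a and Cd8b1 were followed across 8 arrays of mouse double positive thymocytes. They are 3 of 8251 genes named by a probe set with a single symbol, and were represented by 3 of the 12422 probe sets that are not controls, 1 per gene. These are all the probe sets that the platform annotation maps to their symbols alone. All 3 lay well above the dim part of the array and entered every test. The probe sets are 103480_at for Cd4, 102975_at for Cd8a and 162410_s_at for Cd8b1. In the naming of this array type, the suffix of the Cd8b1 probe set marks probes that can match more than 1 transcript.

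A coreceptor binds the MHC molecule that presents a peptide to the T cell receptor (TCR), and brings the kinase Lck to the receptor. CD4 is a single chain that binds MHC class II. CD8 on thymocytes is a pair of an alpha chain, from Cd8a, and a beta chain, from Cd8b1, and binds MHC class I. Double positive thymocytes are the immature stage that carries both coreceptors. Signals through the TCR at this stage decide whether a cell survives and which coreceptor it keeps, and coreceptor levels change during selection.

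The series concerned engagement of the TCR with antibodies. Total RNA from double positive thymocytes was measured in 4 groups of 2 arrays: a control, an overnight control, and groups titled Valpha2 and Vbeta5, the names of a variable segment of the TCR alpha chain and one of the beta chain. The labels used here give no strain, age, genotype, antibody clone, dose or time of exposure, and only the overnight control names a duration. Within each group 1 array is titled Data 1 and the other Data 2, called array 1 and array 2 here. Nothing in the titles says that they came from separate animals or cultures, so a p-value here reflects the spread among these arrays alone, which may be technical.

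Signals are the deposited normalized values on a linear scale of arbitrary units, and the median of an array lay between 73.65 and 110.25. RNA integrity, judged from 3' to 5' ratios alone, looked uneven. Gapdh is probed at both ends of its transcript. Its log2 of 3' over 5' signal was 0.95, 1.72 and 0.48 on array 1 of the overnight control, Valpha2 and Vbeta5. The other 5 arrays lay at -0.28 to -0.09. For actin the same arrays gave 0.68, 1.47 and 0.39, and the other 5 gave 0.0 to 0.3, a narrower gap for Vbeta5. Of 12 markers of the double positive stage 11 had a tested probe set. On the 6 arrays other than Vbeta5, Rag1 lay at 5382.8 or more and the terminal transferase gene Dntt at 7682.4 or more. Not all markers were bright: Ptcra, the dimmest of the 11, lay at 79.4 to 181.8 on those arrays. In bulk RNA, fewer cells of a type and less RNA per cell cannot be told apart.

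All 3 coreceptor transcripts were lowest on the Vbeta5 arrays. Both Vbeta5 arrays lay below all 6 other arrays for 3 of 3 genes, a pattern that 5.51% of the 8281 probe sets tested showed. On the log2(signal + 17) scale the differences of Vbeta5 from the overnight control ran from -1.51 to -1.26, yet none of the 3 genes passed in that comparison. Of 18 tests of a member, 3 passed an adjusted p of 0.05, all with Vbeta5 as the lower group: Cd8a against Valpha2, and Cd8a and Cd4 against the control. Over all probe sets tested, 0.181% passed as lower with Vbeta5 against Valpha2, 0.99% against the control and 0.266% against the overnight control. With the array number as a replicate block all 3 genes passed against the overnight control, as given below. That setting called 124 of the 8281 probe sets in all, beside 51 without it. No member passed in a comparison without Vbeta5. Every adjusted p here is two-sided and comes from limma with Benjamini-Hochberg adjustment over the 8281 probe sets of its comparison.

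Cd4 gave signals of 3591.2 and 2362 in the control, 1985.5 and 3189.5 in the overnight control, 1527.6 and 2365.2 with Valpha2, and 1122.7 and 680.1 with Vbeta5, with array 1 first in each pair. The first 3 groups overlapped one another, and the Vbeta5 arrays lay below them all. The means fell in the order control (2977 ± 869, SD, n = 2), overnight control (2588 ± 851), Valpha2 (1946 ± 592) and Vbeta5 (901.4 ± 313). None of the 3 steps between neighbours in that order passed (adjusted p = 0.87, 1 and 0.327). From end to end, Vbeta5 minus control was -1.72 ± 0.35 (SE) on the log2 scale, a 3.29-fold fall (adjusted p = 0.0358).

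Cd8a was the steadiest of the 3 outside Vbeta5. Its signals were 6780.2 and 6947.2 in the control, 6234.1 and 6104.9 in the overnight control, 8257.1 and 6137.8 with Valpha2, and 3067.4 and 2143 with Vbeta5. The 6 arrays without Vbeta5 thus lay between 6104.9 and 8257.1, and their upper end was a single array, Valpha2 array 1, whose Gapdh 3' to 5' ratio was also the highest. The other Valpha2 array, at 6137.8, lay between the overnight control arrays, and the Valpha2 mean was 7197 ± 1500 (SD, n = 2). The neighbouring means of Valpha2, control (6864 ± 118) and overnight control (6170 ± 91.4) did not pass against each other (adjusted p from 0.862 to 1). Vbeta5 (2605 ± 654) minus Valpha2 was -1.47 ± 0.24 (SE), a 2.76-fold fall (adjusted p = 0.0447). Vbeta5 minus control was -1.41 ± 0.24, a 2.67-fold fall (adjusted p = 0.0193). The control and overnight control arrays did not overlap, the overnight control being lower, as in 16.3% of the probe sets tested.

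Cd8b1 followed another order. Its signals were 9999.4 and 10873 in the control, 15480 and 14150.4 in the overnight control, 15079.8 and 12527.2 with Valpha2, and 7644.4 and 3832.3 with Vbeta5. The control arrays here lay below the overnight control and the Valpha2 arrays without overlap. The overnight control mean of 14820 ± 940 (SD, n = 2) was 1.42-fold that of the control at 10440 ± 618, a log2 difference of 0.50 ± 0.31 (SE) that did not pass (adjusted p = 0.631). It shrank to 0.21 under quantile normalization and 0.28 at a common median. The share of probe sets tested whose overnight control arrays lay above both control arrays was 21.6%, so the lack of overlap is common in that comparison. The Vbeta5 arrays differed most from each other for this gene, array 1 being 1.99 times array 2, around a mean of 5738 ± 2700.

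**Figure D1:**
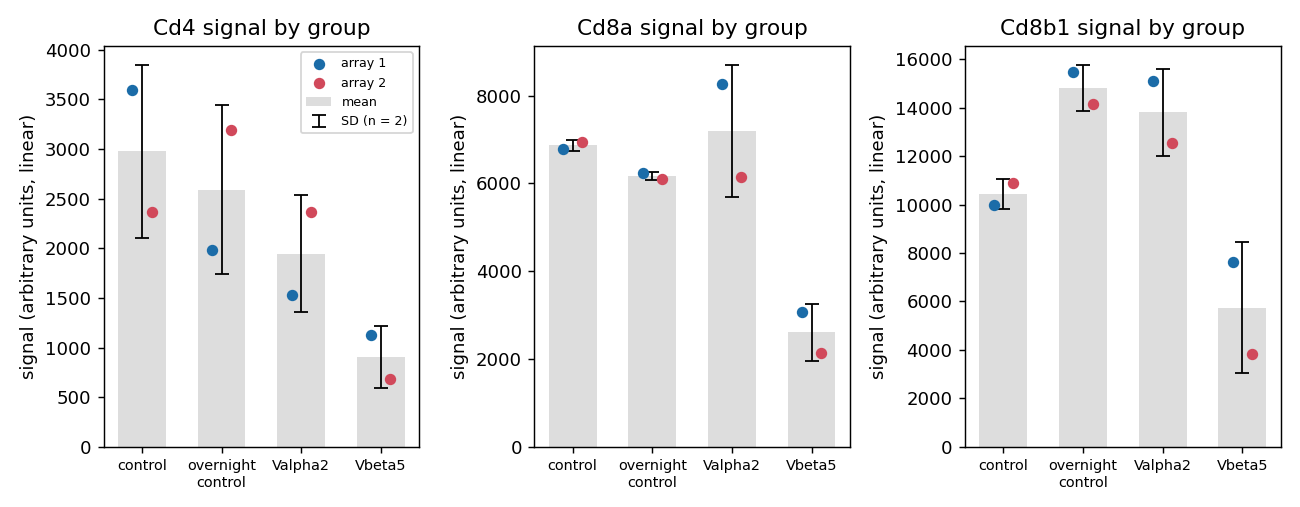
Signal (linear, arbitrary units) of the Cd4, Cd8a and Cd8b1 probe sets in the 4 groups; bars are means, whiskers the SD of 2 arrays, and points the arrays titled Data 1 and Data 2. The Vbeta5 arrays are the lowest for each gene, while the control lies below the overnight control for Cd8b1 and not for Cd4 or Cd8a.

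Vbeta5 was also set against the overnight control. Cd8b1 differed by -1.45 ± 0.31 (SE), a ratio of overnight control to Vbeta5 of 2.73 (adjusted p = 0.0801). Cd4 differed by -1.51 ± 0.35, a ratio of 2.84 (adjusted p = 0.102), and Cd8a by -1.26 ± 0.24, a ratio of 2.4 (adjusted p = 0.0541). The groups did not overlap for any of the 3 genes, and their unadjusted 95% intervals ran from -2.27 to -0.74 for Cd4, -1.80 to -0.72 for Cd8a and -2.13 to -0.77 for Cd8b1. Arrays that did not overlap in this direction made up 15.2% of the probe sets tested, while 0.266% passed as lower and 0.35% as higher. Read against size in place of the test, 99.3% of the probe sets tested had a higher log2 difference than Cd4, 98.7% than Cd8a and 99.1% than Cd8b1.

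The size of the difference varied with the array number. Between the arrays numbered 1, Vbeta5 minus overnight control was -0.81 for Cd4, -1.02 for Cd8a and -1.02 for Cd8b1. Between the arrays numbered 2 it was -2.20 for Cd4, -1.50 for Cd8a and -1.88 for Cd8b1. All 3 genes were thus lower with Vbeta5 within both numbers. With the number as a replicate block in limma all 3 passed (adjusted p = 0.0484 for Cd4, 0.00986 for Cd8a and 0.0158 for Cd8b1). The block called 124 of the 8281 probe sets in this comparison, beside 51 without it. Cd8b1 also passed with the block against Valpha2 (adjusted p = 0.0298), where 90 probe sets did, beside 23 without it. Cd4 did not pass against Valpha2 with the block (adjusted p = 0.179), nor did Cd8b1 against the control (adjusted p = 0.0748). Deviations of same-numbered arrays from their group means correlated at 0.104 to 0.345 in the 6 pairs of groups, and the titles do not say what the number stands for. Both arrays numbered 1 in this comparison have a higher Gapdh 3' to 5' ratio than the other arrays of their groups. Using only the 5 arrays with low ratios, a setting chosen after seeing the data, the differences were -2.20 for Cd4 (adjusted p = 0.007), -1.50 for Cd8a (adjusted p = 0.0234) and -1.88 for Cd8b1 (adjusted p = 0.007). Leaving out Vbeta5 array 1 alone gave Cd8b1 a call (-1.94, adjusted p = 0.0245), and leaving out Vbeta5 array 2 gave it -0.95 (adjusted p = 0.517). The fit to 5 arrays rests on the spread between the control arrays alone.

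The comparison of Vbeta5 with Valpha2 sets the 2 antibody groups side by side without the overnight control, and it shares the Vbeta5 arrays with the comparison above. Cd8a passed here, as given above, in a test where 0.181% of the probe sets passed as lower. Cd8b1 differed by -1.34 ± 0.31 (SE, adjusted p = 0.137) and Cd4 by -1.11 ± 0.35 (adjusted p = 0.327), and neither overlapped. Arrays that did not overlap in this direction made up 18.6% of the probe sets tested. The Cd8a call did not survive leaving out any of the 8 arrays: the adjusted p then lay between 0.0507 and 0.502 and the difference between -1.72 and -1.21. Between the arrays numbered 1 and between those numbered 2 the Cd8a difference was -1.42 and -1.51, a closer match than for Cd4 (-0.44 and -1.77) or Cd8b1 (-0.98 and -1.70).

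Against the control, the only group with low 3' to 5' ratios on both arrays, 0.99% of the probe sets were called lower with Vbeta5, Cd4 and Cd8a among them, and 19% had both Vbeta5 arrays below both control arrays, as all 3 genes did. Since the labels name no time for either group, length of culture and the antibody cannot be told apart here. Cd8b1, whose control signal is lower than its overnight control signal, differed by -0.94 ± 0.31 (SE, adjusted p = 0.227). Without Vbeta5 array 2, the lower array for all 3 genes, the differences were -1.36 for Cd4, -1.16 for Cd8a and -0.45 for Cd8b1. Neither call held without it (adjusted p = 0.277 for Cd4 and 0.149 for Cd8a). Leaving out either control array also ended both calls, with an adjusted p of 0.366 and 0.133 for Cd4 without control array 1 and 2 and of 0.169 and 0.156 for Cd8a. Without Vbeta5 array 1 the adjusted p was 0.0562 for Cd4 and 0.0391 for Cd8a.

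With Valpha2 no member passed against the overnight control, where 0% of the probe sets passed in either direction. The log2 differences were -0.40 for Cd4, 0.21 for Cd8a and -0.11 for Cd8b1, each with an adjusted p of 1. The unadjusted 95% intervals, -1.17 to 0.36 for Cd4, -0.33 to 0.74 for Cd8a and -0.78 to 0.57 for Cd8b1, leave room for changes of either sign, and the sign turned for Cd8a without Valpha2 array 1 (-0.01) and for Cd8b1 without Valpha2 array 2 (0.03). The Cd4 difference was -0.74 and -0.06 when array 1 or array 2 of the overnight control was left out, and -0.09 and -0.71 for Valpha2. Against the control, where 0.399% of the probe sets passed in either direction and no member did, the Cd4 difference was -0.61 ± 0.35 (SE, adjusted p = 0.782), Cd8b1 lay at 0.40 ± 0.31 (adjusted p = 0.856), and Cd8a lay at 0.05 ± 0.24, whose sign turned under quantile normalization and at a common median (-0.08 in each). The Cd8b1 arrays of Valpha2 lay above both control arrays, as in 25.8% of the probe sets tested. The Cd4 difference from the control was -0.30 and -0.92 when array 1 or array 2 of Valpha2 was left out, and -0.31 and -0.91 for the control.

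**Figure D2:**
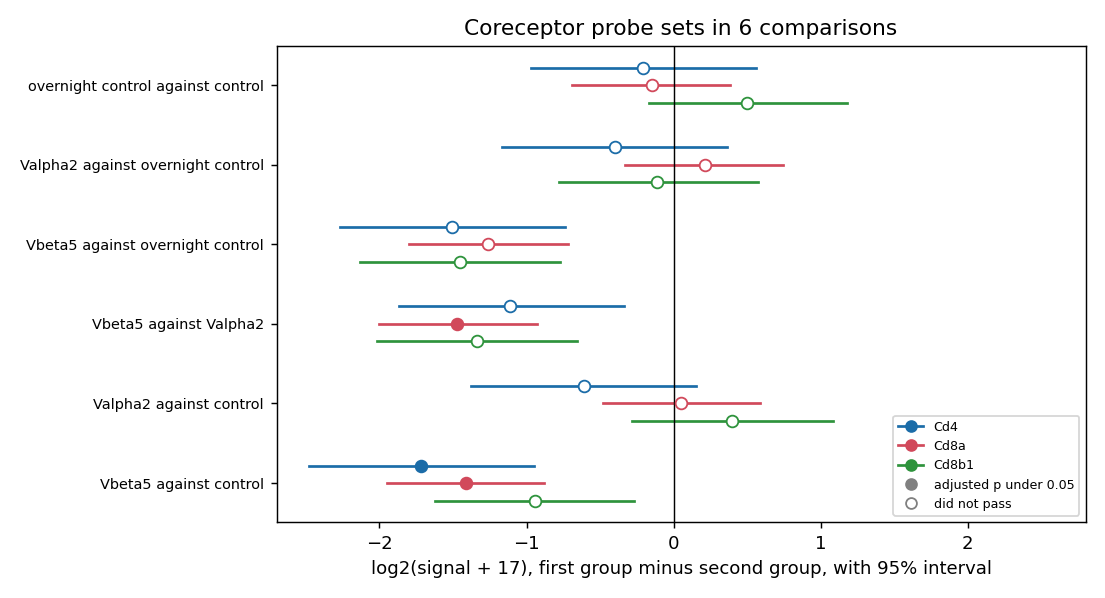
Log2(signal + 17) differences, first group minus second, of the 3 coreceptor probe sets in 6 comparisons, with unadjusted 95% intervals of the limma fit; filled points have an adjusted p under 0.05. The 9 estimates with Vbeta5 lie left of 0, from -1.72 to -0.94, and 3 of them are filled.

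**Figure D3:**
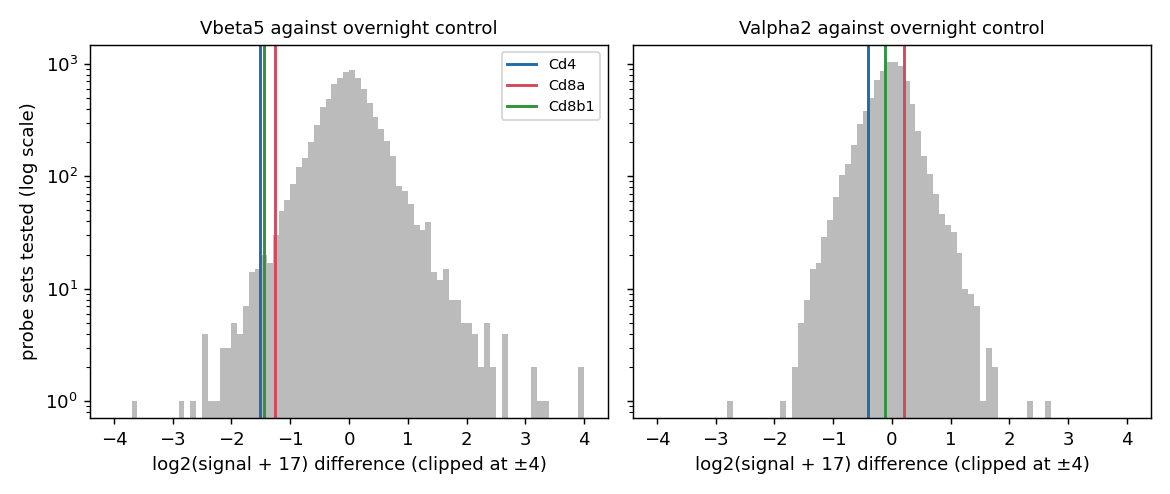
Log2(signal + 17) differences of all 8281 probe sets tested against the overnight control, on a logarithmic count axis, with lines at the coreceptor probe sets. With Vbeta5 the lines for Cd4, Cd8b1 and Cd8a stand at -1.51, -1.45 and -1.26 in the left tail, and with Valpha2 they stand at -0.40, -0.11 and 0.21 within the bulk.

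The 2 CD8 chains did not keep a constant ratio across the groups. Setting the log2 difference between Cd8b1 and Cd8a to 0 at the mean of the control, the 2 control arrays lay at -0.04 and 0.04. The overnight control arrays lay at 0.71 and 0.61, the Valpha2 arrays at 0.27 and 0.43, and the Vbeta5 arrays at 0.71 and 0.23. All 6 arrays were thus above both control arrays, by more than the control arrays differed from each other. A scaling factor of an array cancels in this difference, but quantile normalization reduced it to a mean of 0.40 in the overnight control, 0.18 with Valpha2 and 0.25 with Vbeta5, with Vbeta5 array 2 below control array 2 and Valpha2 array 1 level with it at 0.05. These differences are a description, and no test was run on them. How often other pairs of probe sets part from the control in this way was not counted.

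The log2 difference between Cd4 and Cd8a, set to 0 in the same way, showed no such order. It was 0.32 and -0.32 in the control, -0.41 and 0.30 in the overnight control, -1.19 and -0.14 with Valpha2, and -0.20 and -0.40 with Vbeta5. In the first 3 groups the arrays of a pair lay far apart, and the lowest value belonged to Valpha2 array 1. The order of the 2 arrays of a group was compared as well. Array 1 against array 2 went the same way for Cd8a and Cd8b1 in 4 of 4 groups, and for Cd4 and Cd8a in 1 of 4 groups, Vbeta5. The Cd8a arrays were nearly level in the control and the overnight control (array 1 over array 2 of 0.976 and 1.02), so their order there says little. How often other probe sets share an order was not counted.

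**Figure D4:**
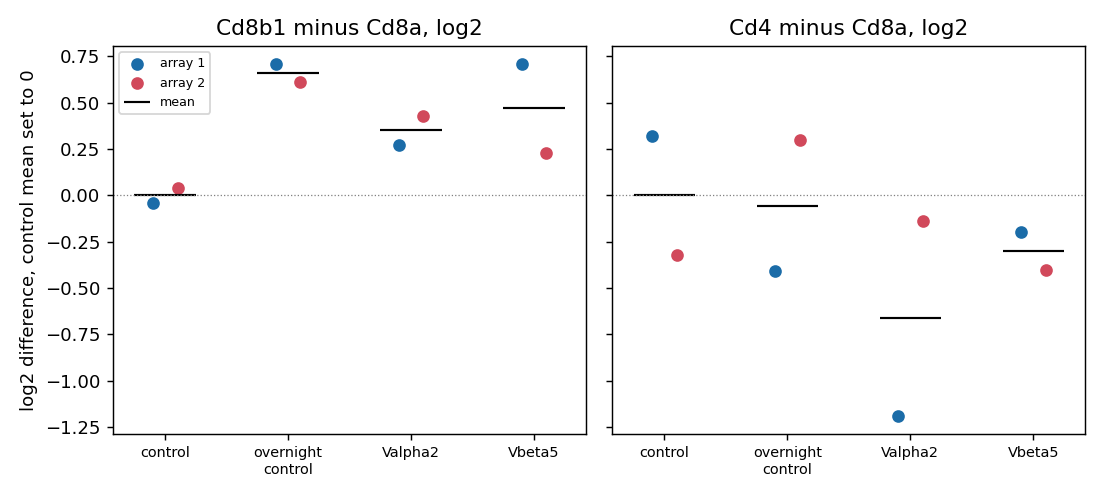
Log2 difference per array between Cd8b1 and Cd8a (left) and between Cd4 and Cd8a (right), each with the mean of the control arrays set to 0; points are arrays, lines are group means. On the left the 6 arrays outside the control lie between 0.23 and 0.71. On the right the overnight control arrays lie on both sides of 0, as the control arrays must in both panels because their mean is set to 0.

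The patterns over all 8 arrays were compared too. Pearson's r of log2(signal + 17) over the 8 arrays was 0.905 between Cd8a and Cd8b1, 0.801 between Cd4 and Cd8a and 0.722 between Cd4 and Cd8b1. These values rest on the low Vbeta5 arrays: over the 6 arrays without them r was 0.041, -0.566 and -0.638. By likeness to Cd8a over 8 arrays, Cd8b1 ranked 56 among the probe sets tested. By likeness to Cd4, Cd8a ranked 137 and Cd8b1 257. All correlations here are descriptions over a few arrays that share their processing, with no test.

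Cd8b1 was most like Dntt, which encodes the terminal transferase that adds bases at V(D)J junctions. Of the probe sets with 1 symbol other than the members, the 2 closest to Cd8b1 were both of Dntt (r = 0.994 and 0.988 over 8 arrays). Over the 6 arrays without Vbeta5 r was 0.971 and 0.94. The brighter Dntt probe set had signals of 7682.4 and 9353.3 in the control, 14722.8 and 12219.5 in the overnight control, 15121.8 and 9787.6 with Valpha2, and 5915.7 and 2566.4 with Vbeta5. As for Cd8b1, the control arrays lay below the overnight control and Valpha2 arrays and above the Vbeta5 arrays. Another Dntt probe set, dimmer than both, did not share that order: its control arrays, at 2533 and 2296.2, lay above array 2 of the overnight control (1855.2) and of Valpha2 (2124.3). Endou, an endoribonuclease gene (0.98), Wdfy2 (0.98) and Acss1, a mitochondrial acetyl-CoA synthetase gene (0.978), came next. Over the 6 arrays without Vbeta5 r was 0.858 for Endou, 0.993 for Wdfy2 and 0.974 for Acss1. Wdfy2 and Acss1 thus lay above both of the Dntt values there. Those 6 arrays were also among the 8 used to choose all these genes.

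Cd8a was most like Prkcb, which encodes a protein kinase C (r = 0.985), Rwdd4a (0.976), the transcription factor gene Ets2 (0.97), the surface protein gene Ly6d (0.967) and Sit1, an adaptor of TCR signalling (0.964). All 5 were at their lowest on the Vbeta5 arrays. Without those arrays r ranged from 0.373 for Sit1 to 0.794 for Prkcb. Cd4 was most like Itpr2, an IP3 receptor gene (r = 0.963), Bcl7c (0.962), Gpr162, an orphan receptor gene (0.957), the ephrin receptor gene Epha2 (0.948) and 2610507B11Rik (0.945). Over the 6 arrays without Vbeta5 r lay between 0.84 and 0.982 for these 5, arrays that were also among the 8 used to choose them. Epha2 was near the offset with Vbeta5, at 23.6 and 17.1.

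Gpr162 is the protein-coding gene next to Cd4 on mouse chromosome 6 in RefSeq's gene order for GRCm38.p6, which was used for order and names only. Its brighter probe set had signals of 1390.1 and 854.7 in the control, 594.3 and 785.9 in the overnight control, 513.1 and 764.6 with Valpha2, and 291.5 and 249.9 with Vbeta5. Like Cd4 it was higher on array 1 in the control and lower there in the overnight control and with Valpha2. Vbeta5 minus control was -1.95 on the log2 scale (adjusted p = 0.0141, and 0.056 to 0.169 without either array of Vbeta5 or the control) and differed from the overnight control by -1.29 (adjusted p = 0.121). A second Gpr162 probe set did not share this pattern, at 0.14 against the control (adjusted p = 0.937). Lag3, on the other side of Cd4 and encoding an inhibitory receptor related to it, had another pattern. Its signals were 119.1 and 89.5 in the control and 174.3 to 386 on the other 6 arrays (overnight control minus control 1.42, adjusted p = 0.166).

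Cd8a and Cd8b1 are direct neighbours on the same chromosome, and the next gene beyond Cd8a is Rmnd5a, which encodes a subunit of a ubiquitin ligase complex. Rmnd5a had signals of 6303.5 and 7662.7 in the control, 8498.2 and 8910.9 in the overnight control, 9794.4 and 6930.6 with Valpha2, and 3736.6 and 3031 with Vbeta5. The Vbeta5 arrays lay below all 6 others, as for the coreceptors. Vbeta5 minus overnight control was -1.37 on the log2 scale (adjusted p = 0.0356), a call in a comparison where no coreceptor passed. The call ended without either overnight control array, either Vbeta5 array or either control array (adjusted p from 0.0758 to 0.38). The gene after it, Rnf103, differed by -0.45 (adjusted p = 0.772). These neighbours were looked up after the data had been seen.

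**Figure D5:**
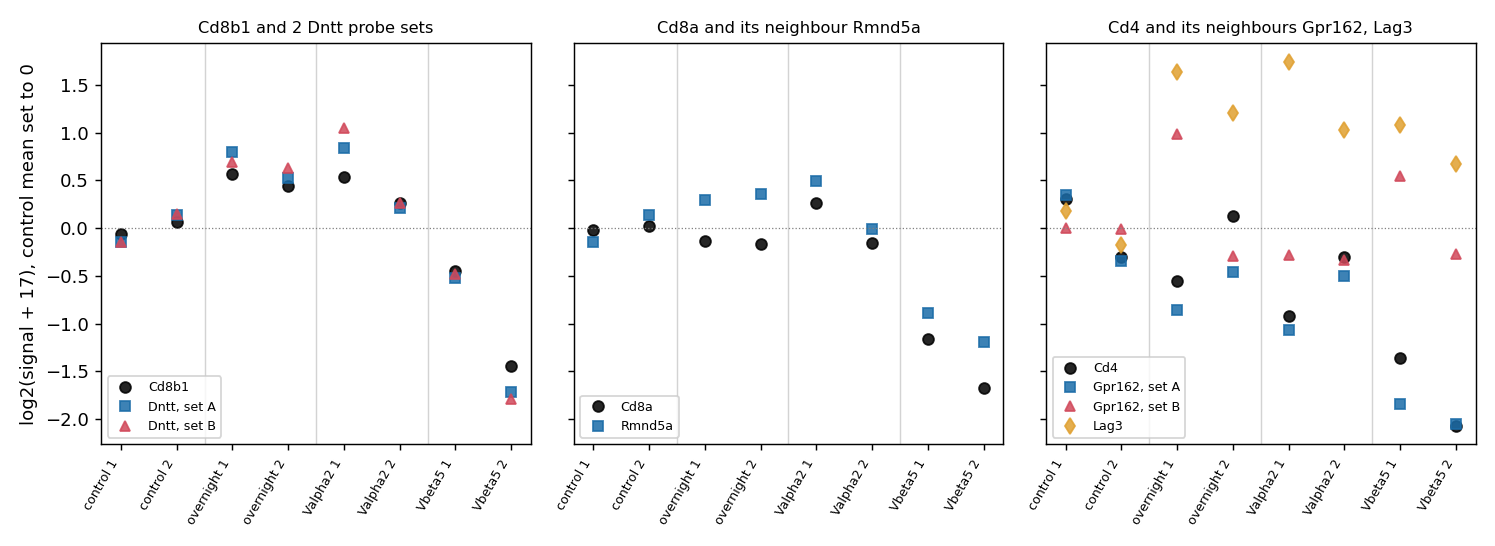
Log2(signal + 17) on each of the 8 arrays, with the mean of the control arrays set to 0, for Cd8b1 with 2 Dntt probe sets, Cd8a with its neighbour Rmnd5a, and Cd4 with its neighbours Gpr162 and Lag3. The 2 Dntt probe sets most like Cd8b1, of 3, run close to it (r = 0.994 and 0.988), whereas 1 of the 2 Gpr162 probe sets and Lag3 lie apart from Cd4.

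Of the 3 genes, the RefSeq promoter table of GRCm38.p6 used here holds Cd8a. No Cd4 or Cd8b1 promoter was thus compared with it, and any part of promoter sequence in the low Vbeta5 signals was not tested. The 250 bases before the annotated start of Cd8a are shown. They lie at chr6:71373177-71373426 on the plus strand, with matches to the searched motifs in capitals.
Cd8a: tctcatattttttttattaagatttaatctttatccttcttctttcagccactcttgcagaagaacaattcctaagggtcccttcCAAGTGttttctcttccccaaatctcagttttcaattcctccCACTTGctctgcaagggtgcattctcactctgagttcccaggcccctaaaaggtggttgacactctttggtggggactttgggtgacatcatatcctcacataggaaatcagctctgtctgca
The capitals mark 2 matches to the E box CANNTG, the letters that E proteins bind, and 1 more match spans the start. Of the 32851 promoters in the table, which reach 50 bases past the start, 72.3% hold at least 1 E box, so its presence is common. Other motifs gave 0 matches on either strand. They were the Runx letters TGTGGT, which 16.8% of promoters hold, and the Gata letters AGATAA, which 11.2% hold. They were also the Ets letters AGGAAG, found in 35.4% of promoters, the Tcf/Lef letters CTTTGA, found in 16% of them, and the GC box letters CCGCCC, found in 35.7%. A match is a description of the letters and not of a bound site.

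The coreceptor signalling partners gave no call in the fit without a block. Of 15 signalling partners 13 had a tested probe set, and 0 of them passed in any of the 6 comparisons. Lck is not analysed here. Their median log2 difference for Vbeta5 against the overnight control was 0.14, beside -0.01 over all probe sets tested, where 0.616% passed in either direction. Pag1, an adaptor that holds the inhibitory kinase Csk at the membrane, had 1461.7 and 1643.6 in the overnight control and 708.7 and 565 with Vbeta5. Its difference was -1.27 ± 0.24 (SE, adjusted p = 0.0528). Pag1 passed under quantile normalization (adjusted p = 0.0448) and with the replicate block (0.0192). It did not pass at a common median (0.197) or with only the 4 arrays compared (0.123). With the 5 arrays of low Gapdh ratio its difference was -1.51. Fyn, a Src family kinase, leaned the other way, at 0.90 ± 0.23 (adjusted p = 0.165). Cd247, the zeta chain of the TCR complex, lay at -0.60 (adjusted p = 0.414) and the kinase gene Zap70 at 0.57 (adjusted p = 0.51).

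Transcription and chromatin factors known to act on the coreceptor genes also gave no call in that fit. Of 23 listed 16 were tested and 0 passed in any comparison, with a median of -0.08 for Vbeta5 against the overnight control. Lef1, which acts with Tcf7 in T cell development, gave 1788.9 and 1530.1 in the overnight control and 3537.7 and 4426.6 with Vbeta5. Its groups did not overlap, and the difference was 1.25 ± 0.24 (SE, adjusted p = 0.0541), with a second probe set at 1.70 (adjusted p = 0.0863). Gata3, a factor of the CD4 lineage, differed by 1.10 ± 0.29 (adjusted p = 0.189). Tcf12, which encodes the E protein HEB, differed by -1.0 ± 0.28 (adjusted p = 0.215) and Smarca4, the ATPase of a chromatin remodelling complex, by -0.87 ± 0.22 (adjusted p = 0.146). With the replicate block Lef1, Gata3 and Tcf12 passed (adjusted p = 0.02, 0.0275 and 0.0397). None of them passed under quantile normalization (0.0789, 0.156 and 0.156) or at a common median (0.156, 0.457 and 0.514). With the 5 arrays of low Gapdh ratio the Lef1 difference was 1.52. Zbtb7b, the factor that directs cells to the CD4 lineage, had dim probe sets that were not tested. No probe set with a single symbol names Runx3, Tox, Tcf7, Bcl11b, Ikzf3 or Patz1, so these were not examined.

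Among the MHC genes that encode coreceptor ligands 4 of 7 were tested, and 1 rose with Vbeta5 against the overnight control, where 0.35% of all probe sets tested did. H2-K1, a class I heavy chain, had 1271 and 977 in the overnight control and 2723 and 3684.6 with Vbeta5, a rise of 1.49 ± 0.23 (SE, adjusted p = 0.0191). That call ended without overnight control array 1 or 2 or Vbeta5 array 2 (adjusted p = 0.0523, 0.0986 and 0.276). The probe sets of this family can take signal from related class I genes, and 2 other H2-K1 probe sets differed by 0.97 (adjusted p = 0.48) and -0.20 (adjusted p = 0.994). The 3 H2-D1 probe sets, brightest first, differed by 0.41, 1.21 and 1.83 (adjusted p = 0.783, 0.0863 and 0.194), and the second of them passed against the control at 1.62 (adjusted p = 0.0162). B2m, the light chain of class I, differed by 0.40 (adjusted p = 0.809), and H2-Eb1, a class II chain, differed by 0.79 (adjusted p = 0.825). The class II genes H2-Aa and H2-Ab1 were too dim to be tested.

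Of the 8 tested markers of the double positive stage other than the coreceptors, 3 fell with Vbeta5 against the overnight control and 0 rose, with a median of -1.33, beside 0.266% lower and 0.35% higher over all probe sets tested. They were Rag1 and Rag2 of the V(D)J recombinase, with log2 differences of -2.44 and -3.65, and Ly6d, with -1.63 (adjusted p from 0.0143 to 0.0189). Without Vbeta5 array 2 none of these 3 calls held (adjusted p from 0.112 to 0.181), nor without overnight control array 1 (0.0709 to 0.11). A second Rag1 probe set, far dimmer, differed by -0.06 (adjusted p = 1). Cd24a, a surface protein of immature thymocytes, was not lower: its Vbeta5 arrays, at 4463 and above, exceeded all 6 others, which reached 4054.6. Cd3e with Vbeta5, at 2670.9 to 4669.3, lay within the range of the other 6 arrays (2445.8 to 5699.8). Cd1d1 with Vbeta5, at 588.9 to 749.1, overlapped theirs (594.5 to 1037).

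Cd4 and Cd8a are also transcribed in some dendritic cells, so markers of other cell types were summed by array. The 8 dendritic cell markers, all with a probe set, summed to 688.1 to 723 in the control, 558.9 to 1464.9 in the overnight control, 613.5 to 738.5 with Valpha2 and 1211.8 to 1301.2 with Vbeta5. H2-Aa never exceeded 24.6, but other markers of this list were brighter. H2-Ab1 lay at 65.8 and 88 with Vbeta5 and at 15.9 to 38.5 on the other arrays. H2-Eb1 lay at 222.4 and 233 with Vbeta5 and at 31.6 to 178.3 on the others. Itgax, at 96.9 and 68.5 with Vbeta5, lay within the range of the others (14.4 to 150.4). The B cell markers, 7 of 8 with a probe set, summed to 4009.8 to 4821.4, 4464.5 to 5420.4, 4810.7 to 4955.7 and 2787.2 to 3494 in the same order of groups, most of it from Ighm. None of the B cell markers was under 17 on all arrays. The 8 thymic epithelium markers with a probe set, of 9, summed to 276.2 to 346.1, 635.9 to 748.5, 465 to 629.3 and 261.7 to 354.6. The defining gene Foxn1 did not exceed 22.9, and Cldn4 ranged from 48.2 to 492.6. The NK cell markers, 6 of 9 with a probe set, summed to 292.5 to 395.9 in the control and 567.7 to 875 in the other groups. Most of that sum came from Gzma, at 183.3 and 224.1 in the control and 389.4 to 610.4 in the other groups. The 9 macrophage markers summed to 397.4 to 450.5 in the control, 514.3 to 1207.7 in the overnight control, 465.1 to 550 with Valpha2 and 702.5 to 886.5 with Vbeta5, and Lyz2 among them was under 17 on all arrays. Erythroid sums lay between 420.3 and 909.6, and the overnight control arrays gave 599.4 and 909.6. Sums of fibroblasts and endothelium lay between 716.7 and 2061.3, and both of these ends were overnight control arrays. The part of these cells in the coreceptor differences was not tested.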

How the data were processed

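Total RNA of 8 samples was measured on arrays with 12488 probe sets. The deposited intensity values were normalized by the authors, per the labels, and are on a linear scale with no value below 0; software, scaling target and genome build are not given here. The trimmed mean of every array lay between 250.14 and 250.16. Precision is limited by the small number of arrays. Control probe sets (66) were left out, log2(signal + 17) was taken, 17 being the rounded 20th percentile of positive values, and the dimmest 33.3% by mean were left out, which left 8281. A fold change on that scale understates changes of dim probe sets.

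Symbols came from the platform annotation, updated through a RefSeq table of GRCm38.p6: 10833 probe sets had 1 symbol, 396 several and 1193 none. limma 3.58.1 in R 4.3.3 fitted 1 mean per group to all 8 arrays, with a trended prior variance (prior degrees of freedom 6.328, residual 4), and was tested on simulated data. Groups came from the titles; 6 pairwise comparisons were made, with Benjamini-Hochberg adjustment within each.

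The members and lists were chosen with earlier results of these data known. Named besides the members are the 5 probe sets most like each, all list genes that passed and up to 4 more per list with the smallest p, and chromosome neighbours, added later; a list gene is represented by its brightest probe set. The alternatives tried changed the scaling (quantile, common median), the offset (8.5, or a floor), the filter, the trend, a replicate block, or the arrays used.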

Additional observations from a re-analysis of the deposited data

How the results depend on the processing

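Of 324 recalculated differences of the 3 coreceptor genes, 281 kept their sign and their side of the threshold, 22 lost a call, 12 gained one and 9 turned sign. Values below are log2 differences with limma's adjusted p. At a common median Cd4 in Vbeta5 against control was -1.91 (0.0662) and Cd8a in Vbeta5 against Valpha2 -1.53 (0.109). The latter was -1.47 with no filter (0.0679) and with only the 4 arrays compared (0.149). Without the variance trend all 3 calls ended, at -1.72 for Cd4 (0.135) and -1.41 for Cd8a (0.105) against control and -1.47 for Cd8a against Valpha2 (0.23). Quantile normalization gave Cd8a a call against the overnight control (-1.26, 0.0237).

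With the array number as a replicate block, Vbeta5 against the overnight control passed for Cd4 (-1.51, 0.0484), Cd8a (-1.26, 0.00986) and Cd8b1 (-1.45, 0.0158), and Cd8b1 passed against Valpha2 (-1.34, 0.0298). Deviations of same-numbered arrays correlated at 0.104 to 0.345, but there are only 2 numbers and no label says what they stand for, so whether they pair the arrays is not settled. With the 5 arrays of low Gapdh ratio, chosen after seeing the data, the differences against the overnight control were -2.20, -1.50 and -1.88 for Cd4, Cd8a and Cd8b1, and Cd8b1 stood at -1.70 (0.0286) against Valpha2 and -1.44 (0.0087) against control. Lone arrays are there assumed to vary like the control pair.

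Signs turned for Cd4 in overnight control against control (0.13 with those 5 arrays) and for Cd8a in Valpha2 against control (-0.08 under quantile normalization, -0.08 at a common median, -0.16 with the 5 arrays). Leaving out each array, the former ran from -0.55 to 0.13 and the latter from -0.16 to 0.27. Valpha2 against overnight control ran from -0.01 to 0.42 for Cd8a and from -0.24 to 0.03 for Cd8b1. Vbeta5 against control ran from -2.07 to -1.36 for Cd4, -1.67 to -1.16 for Cd8a and -1.44 to -0.45 for Cd8b1. Vbeta5 against overnight control ran from -1.86 to -1.15 for Cd4, -1.52 to -1.0 for Cd8a and -1.94 to -0.95 for Cd8b1, and Vbeta5 against Valpha2 from -1.72 to -1.21 for Cd8a and -1.84 to -0.84 for Cd8b1.

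Counts of probe sets past the threshold moved more. Overnight control against control, at 15, gave 0 without the trend, 99 with the replicate block, 69 with the 5 arrays, 31 with only its 4 arrays and 0 to 119 leaving out an array. Vbeta5 against overnight control, at 51, gave 28 at a common median and with its 4 arrays, 0 without the trend, 124 with the block, 144 with the 5 arrays and 0 to 54 leaving out an array. Vbeta5 against Valpha2, at 23, gave 0 at a common median, without the trend and with its 4 arrays, 90 with the block, 41 with the 5 arrays and 0 to 31. Valpha2 against control, at 33, gave 15 under quantile normalization, 11 at a common median, 10 with a floor and with no filter, 0 without the trend, 89 with the block, 53 with the 5 arrays, 52 with its 4 arrays and 0 to 45. Vbeta5 against control, at 133, gave 20 without the trend, 235 with the block, 293 with the 5 arrays, 209 with its 4 arrays and 0 to 181. Valpha2 against overnight control, at 0 (134 at an unadjusted p under 0.05), gave 0 to 1.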
